A study of Mus musculus with 2 samples.

Results

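The complement components and regulators C1ra, C2, C4b, C3, Cfb, Serping1, Cfi, Cd55 and Cd59a were followed across the cell types of the mouse ciliary body dissection. They were taken by gene symbol from both count matrices, which gave 9 of 33456 genes. The first 5 encode components that drive the cascade and are called sources below, and the last 4 encode inhibitors of it. The material was ciliary epithelium of wild-type C57BL/6 mice at postnatal day 35, freshly dissected and dispersed with collagenase, with no treatment and a single group. It was profiled by droplet-based single-cell RNA sequencing in 2 libraries. Library 1 pooled 3 sets of eyes, and for library 2 the labels give 3 sets in one field and 4 in another. Each library is one pool, so every level rests on n = 2 libraries. The tests set differences between classes against how much such differences vary from one pool to the other. That variation is estimated over all classes together, so a small p-value does not stand for many replicate pools.

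Complement is a protein cascade of innate immunity. The classical route starts when C1q binds a target and its proteases C1r and C1s cleave C4 and C2, the alternative route adds factor B to C3, and the cleavage of C3 leads on to opsonisation and membrane attack. Host cells are protected by soluble inhibitors such as C1 inhibitor and factor I and by membrane proteins such as CD55 and CD59. In the eye, which is held in a state of restrained immunity, complement is known for low-level activity and for its link to uveitis and macular degeneration.

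Library 1 held 4764 cell barcodes with 22510387 unique molecular identifiers (UMIs, counts of captured RNA molecules) and library 2 held 6220 barcodes with 30683405 UMIs; 11 barcodes occurred in both. After filtering, 3865 cells with a median of 4128 UMIs remained in library 1 and 5466 with a median of 2968 in library 2. Clusters were grouped into classes by marker genes, and each class name stands for cells with that marker profile. The non-pigmented ciliary epithelium, which faces the vitreous, was found through 9 of its 10 markers, and the pigmented ciliary or iris epithelium through 6 of 8. They made up 3.49% and 2.73% (non-pigmented) and 3.75% and 4.21% (pigmented) of the cells in libraries 1 and 2, so the dissections were mostly other tissue: stroma, pigment cells, immune cells and retina. The fibroblast class joined 5 clusters with profiles of fibroblasts, trabecular meshwork and corneal stroma, 1 of which had 3 cells in library 1 and 232 in library 2. The macrophage class joined a macrophage cluster with a smaller cluster in which class II genes and the mast cell protease genes Mcpt4 and Cma1 were found; the best marker list of the smaller cluster was that of mast cells. Levels are CPM, the UMIs of a gene for each 1000000 UMIs of the cells of a class summed in one library, and they are compared between classes for one gene, never between genes.

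Members differed widely in depth. Over all kept cells Serping1 had 13270 UMIs, C4b 3898, Cd59a 3084, C2 3066 and C1ra 1872, while C3 had 495, Cd55 416, Cfb 143 and Cfi 65. The last 4 were not seen in 5 (C3), 5 (Cd55), 10 (Cfb) and 9 (Cfi) of the 18 classes that had at least 20 cells in each library. In a test of each class against the mean of the 17 other classes, 41 of 162 member and class pairs were called higher and 12 lower. Over all genes tested, 14.8% of such pairs were called higher and 3.81% lower. That test (edgeR's quasi-likelihood test with Benjamini-Hochberg adjustment, calls need an adjusted p below 0.05 together with a change of 1 or more on the log2 scale, up or down) uses the mean of the logarithms, so classes without a UMI pull the mean down. A higher call is then easily made and a lower one hardly, and 13 of the 41 higher calls had a level below the plain average of the other classes. The account below gives calls for the leading classes of each member among the 28 that were above that average.

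**Figure D1:**
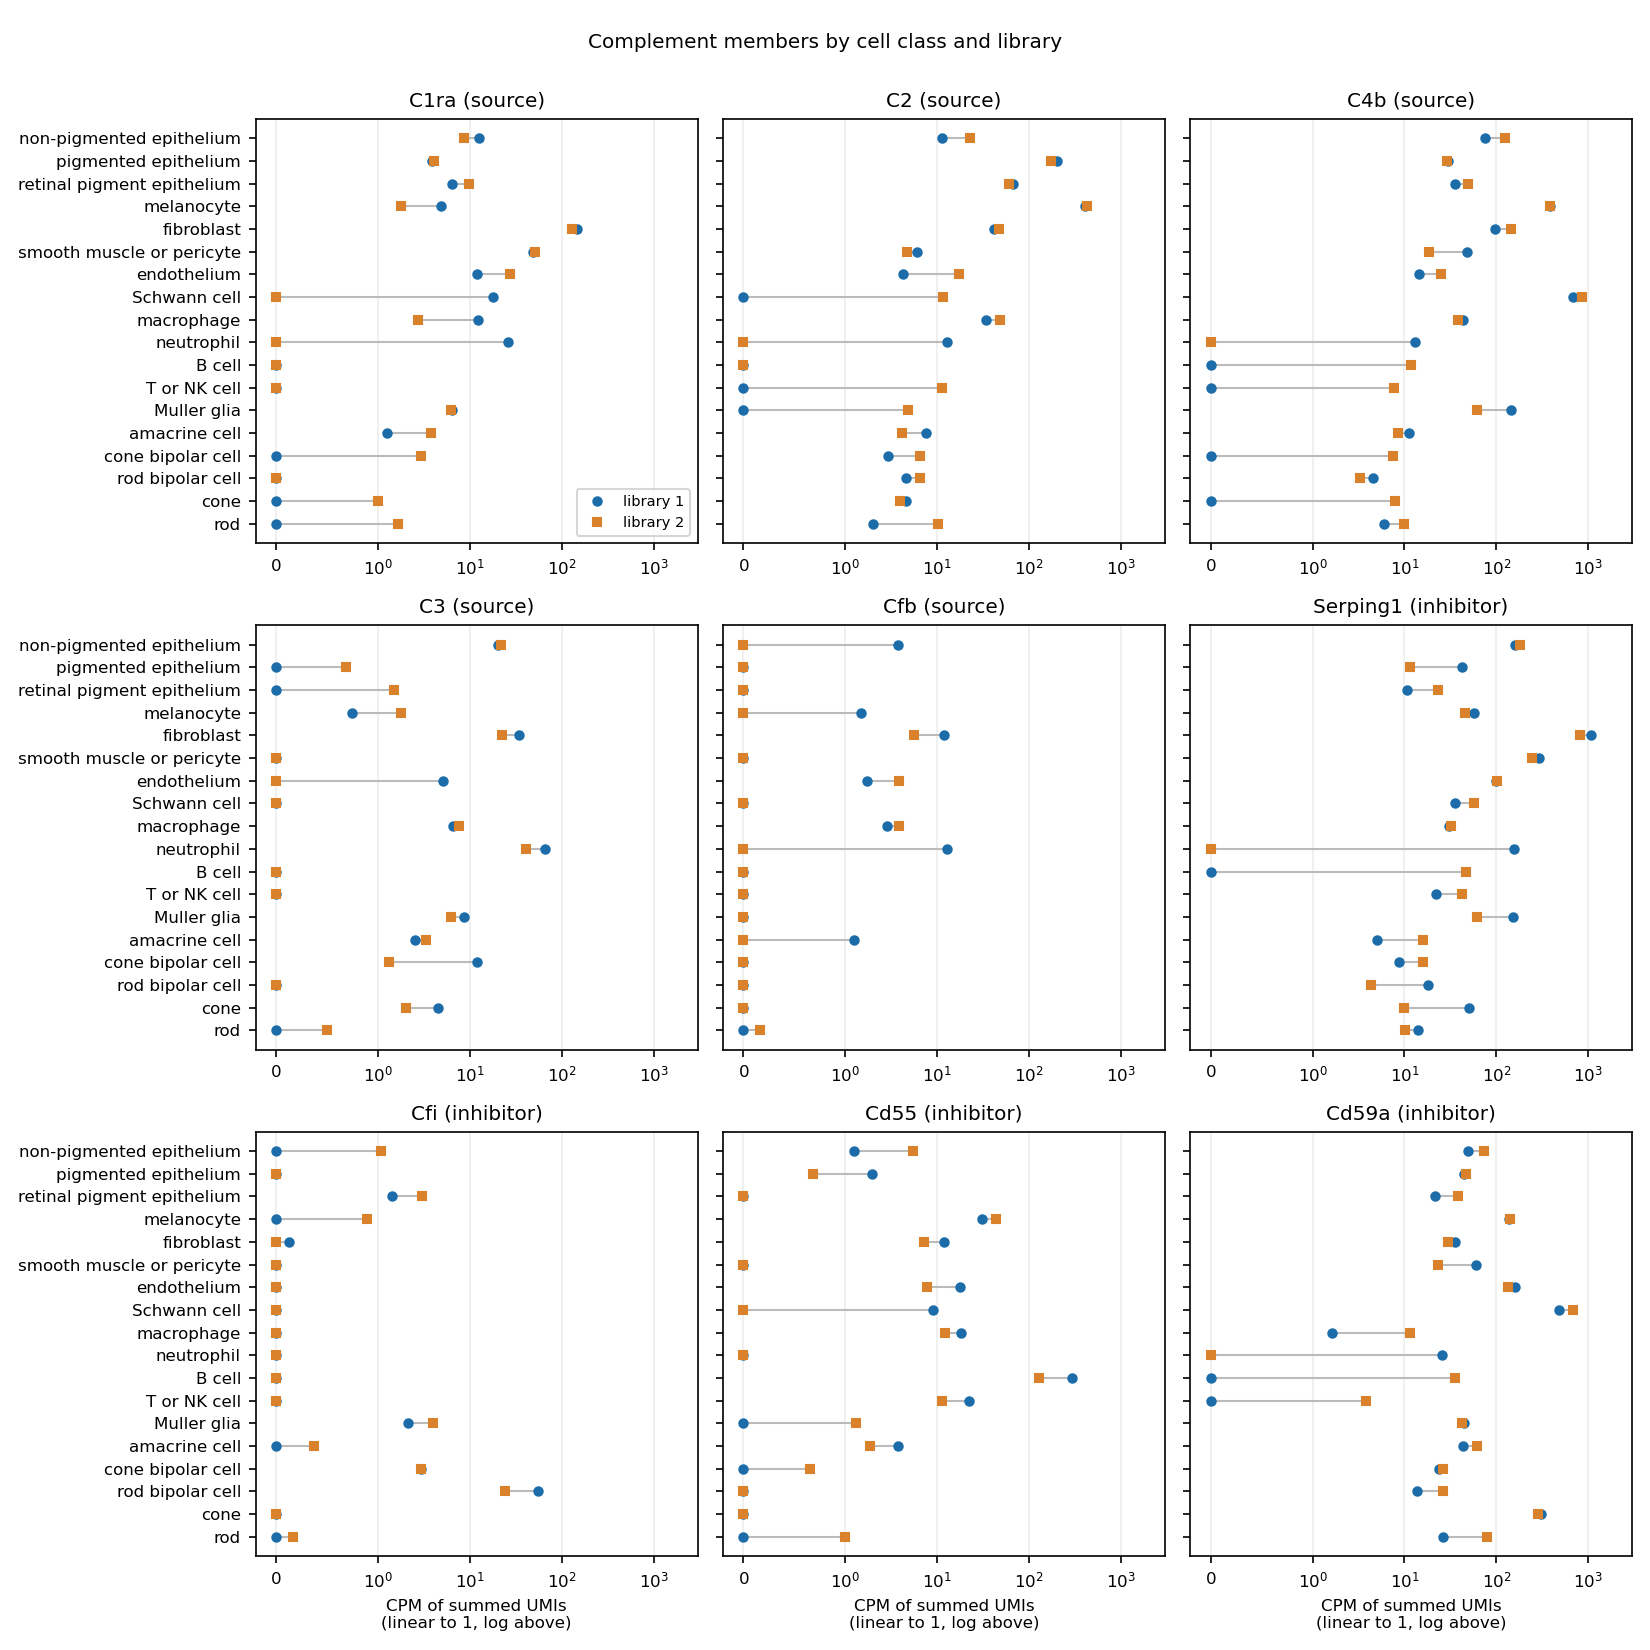
Levels of the 9 members (CPM, linear to 1 and on a log scale above) in each of the 18 classes, with a circle for library 1 and a square for library 2; panel titles tell sources from inhibitors. Points show C1ra and Serping1 highest in fibroblasts, C2 in melanocytes, C4b and Cd59a in Schwann cells, Cfi in rod bipolar cells and Cd55 in B cells.

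C1ra encodes the mouse C1r protease, which starts the classical route once C1q has bound (chromosome 6, 124512405 to 124523443, plus strand, in a GENCODE annotation of GRCm38). Fibroblasts had 145 CPM in library 1 and 130 CPM in library 2. The next classes were smooth muscle or pericytes with 48.4 and 51.1 CPM and endothelium with 11.9 and 27.1 CPM, while the non-pigmented epithelium had 12.4 and 8.64 CPM and the pigmented epithelium 3.88 and 4.1 CPM. In endothelium 14 of 14 UMIs in library 1 and 1 of 14 in library 2 lay in the 5% of cells with the most UMIs. Without these cells the endothelial level was 0 and 31.7 CPM. Neither library of fibroblasts overlapped any other class, and the smooth muscle values stood clear of all below them. The difference from the mean of the other classes was 5.73 ± 0.27 (log2, SE) for fibroblasts, with an edgeR quasi-likelihood adjusted p of 3.06e-16, and 4.01 ± 0.61 for smooth muscle or pericytes, with an adjusted p of 6.18e-06. Fibroblasts held 91.6% of all C1ra UMIs in library 1 and 83.6% in library 2. These shares also reflect their number, since they were 33.3% and 11.5% of the cells. Of the C1ra CPM summed over classes, which leaves number out, they held 50.3%. A UMI of C1ra was present in 43.7% and 41.7% of fibroblasts (13.4% and 11.2% after thinning each cell to 1000 UMIs), against 0 of 383 rods in library 1, which allows a share of up to 0.783%, and 0.391% of rods in library 2. Rods, the photoreceptors of dim light, should not make C1ra and serve as a measure of free RNA; their median depth was 1011 and 1264 UMIs, against 5141.5 and 5017 in fibroblasts. The near copy C1rb had 1 UMI in all.

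C2 encodes the protease part of the classical C3 convertase (chromosome 17, 34862604 to 34898265, minus strand). Melanocytes, the neural crest pigment cells of the uvea, had 405 and 422 CPM. The pigmented epithelium followed with 200 and 172 CPM and the retinal pigment epithelium with 67.6 and 61 CPM. Each of these 3 pigmented classes was separate from the next in both libraries, and all 3 lay above every unpigmented class. Fibroblasts with 41.8 and 46.7 CPM and macrophages with 34.3 and 48.6 CPM overlapped each other, and the non-pigmented epithelium had 11.2 and 22.7 CPM. Against the mean of the other classes the edgeR quasi-likelihood test gave a log2 difference of 5.79 ± 0.21 for melanocytes (adjusted p = 5.94e-20), 4.38 ± 0.25 for the pigmented epithelium (2.80e-15) and 3.06 ± 0.30 for the retinal pigment epithelium (1.15e-09). C2 was present in 82.6% and 68.4% of melanocytes (31.6% and 30.6% thinned) and in 54.5% and 42.2% of pigmented epithelial cells (17% and 11.6% thinned), against 0.261% and 1.96% of rods. The 8 melanocyte markers, which share Tyrp1 and Pmel with the pigmented epithelial list, summed to 61221 and 58917 CPM in melanocytes, 29015 and 25505 CPM in the pigmented epithelium and 10477 and 9937 CPM in the retinal pigment epithelium, in the same order as C2. Whether melanocyte RNA adds to C2 in the epithelial classes was not tested.

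The C2 level within the pigmented epithelium was uneven. Cells with a UMI of Myh11, the smooth muscle myosin, numbered 62 and 53, and they had 265 and 249 CPM of C2, while the 83 and 177 cells without one had 125 and 117 CPM. The split was chosen after the values were seen, and it also separates cells by depth. In the non-pigmented epithelium, 9 of 9 C2 UMIs in library 1 and 18 of 21 in library 2 lay in the 14 and 11 cells that were among the 5% of cells with the most UMIs, and without these cells the level was 0 and 5.89 CPM. In those deep cells the melanocyte markers summed to 5240 and 11146 CPM, against 2042 and 1620 CPM in the other non-pigmented cells. The pigmented epithelial markers summed to 1252 and 3057 CPM in the deep cells and 999 and 648 CPM in the others, so they differed little in library 1. The non-pigmented markers summed to 6270 and 6155 CPM in the deep cells and 7362 and 6875 CPM in the others. The part of doublets in this was not tested.

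C4b encodes complement C4, which the C1 proteases cleave and which forms the convertase together with C2 (chromosome 17, 34728380 to 34743882, minus strand). Schwann cells, the glia of peripheral nerve, had 684 and 864 CPM and melanocytes 385 and 381 CPM. These classes shared no range with each other or with any further class. Fibroblasts with 96.1 and 146 CPM, Muller glia with 145 and 61.2 CPM and the non-pigmented epithelium with 75.7 and 123 CPM overlapped. The retinal pigment epithelium had 35.6 and 49.8 CPM, macrophages 43.3 and 38.2 CPM and the pigmented epithelium 30.1 and 29.4 CPM. Against the mean of the other classes the edgeR quasi-likelihood test gave 4.91 ± 0.29 (log2) for Schwann cells with an adjusted p of 3.77e-15 and 4.33 ± 0.21 for melanocytes with an adjusted p of 7.04e-17, and C4b was called lower in rods, cones, cone and rod bipolar cells and amacrine cells. Under another random split of the genes into clustering and held-out groups, the 5 lower calls were lost, each with an adjusted p of 1, at log2 differences of -0.66 (cone bipolar cells) to -2.48 (rod bipolar cells). The Schwann cell class is small, with 41 and 32 cells, of which 58.5% and 81.2% held a C4b UMI, against 0.783% and 2.35% of rods. The near-identical copy C4a had 33 UMIs in all, and reads of the pair may be split between them.

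C3 is the centre of all complement routes (chromosome 17, 57203970 to 57228136, minus strand). Neutrophils had 64.7 and 41 CPM, a level that rests on 5 and 2 UMIs. Fibroblasts had 34.3 and 22.5 CPM and the non-pigmented epithelium 19.9 and 21.6 CPM. Those classes stood close together but did not overlap, and all lay above Muller glia with 8.51 and 6.17 CPM and macrophages with 6.54 and 7.65 CPM. In the pigmented epithelium C3 had 0 and 1 UMI. The log2 difference from the mean of the other classes was 4.80 ± 0.41 for fibroblasts (edgeR quasi-likelihood adjusted p = 2.49e-10) and 4.18 ± 0.58 for the non-pigmented epithelium (2.12e-06). Only 5.52% and 3.66% of fibroblasts held a C3 UMI (2.06% and 1.15% thinned), against 0 of 383 and 0.168% of rods, so most fibroblasts held no C3 UMI at this depth. In the non-pigmented epithelium the C3 UMIs came from 6 and 5 cells (4.44% and 3.36%). Of these UMIs 9 of 16 in library 1 and 0 of 20 in library 2 lay in the deep cells described for C2, and without those cells the level was 16.2 and 39.3 CPM.

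Cfb encodes factor B, the protease part of the alternative C3 convertase, and lies next to C2 (chromosome 17, 34856374 to 34862518, minus strand). Fibroblasts had 11.8 and 5.63 CPM from 92 and 23 UMIs and macrophages 2.86 and 3.82 CPM from 7 UMIs in each library. Endothelium had 1.7 and 3.87 CPM and overlapped macrophages, and fibroblasts lay above both. Neutrophils had 12.9 CPM in library 1 from 1 UMI and 0 in library 2. The log2 difference from the mean of the other classes was 4.98 ± 0.60 for fibroblasts by edgeR's quasi-likelihood test (adjusted p = 8.73e-07), while DESeq2 gave 3.63 with an adjusted p of 0.567. The read-through gene Gm20547 shares 221 of the last 300 exonic bases of Cfb (73.7%) and had 0 UMIs, so reads falling there may not have been counted for either gene.

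Serping1 encodes C1 inhibitor, the serpin that inactivates C1r and C1s (chromosome 2, 84765387 to 84775444, minus strand). Fibroblasts had 1081 and 810 CPM, smooth muscle or pericytes 290 and 246 CPM and the non-pigmented epithelium 160 and 179 CPM. The fibroblast values lay above all other classes, and smooth muscle lay above the non-pigmented epithelium in both libraries. Muller glia had 153 and 61.2 CPM and endothelium 99.4 and 101 CPM, while the pigmented epithelium had 42.7 and 11.6 CPM, macrophages 30.6 and 32.2 CPM and the retinal pigment epithelium 10.7 and 23.1 CPM. Neutrophils had 155 CPM in library 1 from 12 UMIs of a single cell and 0 in library 2. The edgeR quasi-likelihood test put fibroblasts 4.87 ± 0.23 (log2) above the mean of the other classes (adjusted p = 2.24e-17), smooth muscle or pericytes 2.82 ± 0.35 (1.06e-07) and the non-pigmented epithelium 2.11 ± 0.32 (3.00e-06). It was called lower in rods, cone and rod bipolar cells and amacrine cells, and under another random split of the genes these 4 calls were lost, each with an adjusted p of 1, at log2 differences of -0.92 (cone bipolar cells) to -1.97 (rod bipolar cells). Serping1 was present in 89.7% and 84.4% of fibroblasts (57.8% and 46.7% thinned) and in 42.2% and 38.3% of non-pigmented cells, against 1.83% and 2.57% of rods. The 9 fibroblast markers summed to 41388 and 29627 CPM in fibroblasts, 1174 and 605 CPM in the non-pigmented epithelium and 1067 and 354 CPM in the pigmented epithelium.

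Cfi encodes factor I, the plasma protease that cuts C3b and C4b and so shuts the cascade down (chromosome 3, 129835884 to 129875332, plus strand). It was detected mainly in rod bipolar cells, second-order neurons of the rod pathway, at 54.7 and 23.9 CPM from 12 and 22 UMIs. Muller glia had 2.13 and 3.96 CPM, cone bipolar cells 2.94 CPM in each library and the retinal pigment epithelium 1.42 and 2.97 CPM, and all 3 overlapped. In Muller glia all Cfi UMIs, 1 and 9, lay in the 5% of cells with the most UMIs. Without these cells the Muller glia level was 0 CPM in both libraries. In cone bipolar cells 0 of 1 UMI in library 1 and 5 of 9 in library 2 lay in such cells. Rod bipolar cells held 70.6% and 45.8% of all Cfi UMIs and stood above every other class in both libraries. The log2 difference from the mean of the other classes was 6.94 ± 0.67 (edgeR quasi-likelihood adjusted p = 1.59e-08). A Cfi UMI was present in 10.3% and 8.89% of rod bipolar cells (1.25% and 2.82% thinned), against 0 of 383 and 0.0559% of rods. The median depth of rod bipolar cells was 2348 and 4265 UMIs.

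Cd55 encodes decay-accelerating factor, a membrane protein that takes C3 convertases apart (chromosome 1, 130439027 to 130462744, minus strand). B cells had 290 and 129 CPM from 18 and 11 UMIs in 26 and 32 cells. Melanocytes had 31 and 43.4 CPM, T or NK cells 21.9 and 11.4 CPM, macrophages 18 and 12 CPM, endothelium 17.8 and 7.74 CPM and fibroblasts 11.7 and 7.1 CPM. B cells and then melanocytes were separate from the rest in both libraries, and the others overlapped. The edgeR quasi-likelihood test put B cells 6.98 ± 0.56 (log2) above the mean of the other classes (adjusted p = 9.10e-11) and melanocytes 4.73 ± 0.38 (9.49e-11). A Cd55 UMI was seen in 42.3% and 28.1% of B cells and in 21% and 18.4% of melanocytes, against 0 of 383 and 0.335% of rods.

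Cd59a encodes CD59, which blocks the last step of the membrane attack complex (chromosome 2, 104095801 to 104115354, plus strand). Schwann cells had 480 and 692 CPM and cones, the photoreceptors of daylight, 304 and 283 CPM. Endothelium had 160 and 133 CPM and melanocytes 137 and 142 CPM. Schwann cells and cones were each separate from all below them, while endothelium and melanocytes overlapped. The edgeR quasi-likelihood test gave a log2 difference from the mean of the other classes of 3.78 ± 0.31 for Schwann cells (adjusted p = 1.23e-11) and 2.79 ± 0.26 for cones (2.86e-10). The non-pigmented epithelium had 49.6 and 73.4 CPM, the pigmented epithelium 44.6 and 46.5 CPM and fibroblasts 35.5 and 29.9 CPM. Macrophages were low, with 1.63 and 11.5 CPM, and were called lower than the mean of the other classes (log2 -2.38 ± 0.48, edgeR quasi-likelihood adjusted p = 2.53e-04); without the 5% of cells with the most UMIs the difference was -2.13 with an adjusted p of 1. A Cd59a UMI was present in 47.1% and 58% of cones and in 3.13% and 14.4% of rods, whose Cd59a level was 26.3 and 78.6 CPM. The related gene Cd59b had 398 UMIs in all.

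Promoter sequences from RefSeq (GRCm38.p6, 250 bases before to 50 after the start of the gene) were at hand for C1ra, C3, Cd55 and Cd59a, 4 of the 9 members. Those of C1ra and C3 are shown because both genes were highest, among classes with more than a few UMIs, in fibroblasts and, within them, in the same cluster. The C3 window starts from the same site as the gene model above, but the RefSeq start of C1ra lies 216 bases inside the GENCODE gene model, so most of that window and both marked motifs are within the longer model. Capitals mark TTNNGCAA, a motif bound by C/EBP factors, and in C1ra also TTCNNNGAA, the core of a gamma-interferon activation site; both strands were read 5′ to 3′ along the gene.
C1ra, chr6:124512371-124512670, plus strand: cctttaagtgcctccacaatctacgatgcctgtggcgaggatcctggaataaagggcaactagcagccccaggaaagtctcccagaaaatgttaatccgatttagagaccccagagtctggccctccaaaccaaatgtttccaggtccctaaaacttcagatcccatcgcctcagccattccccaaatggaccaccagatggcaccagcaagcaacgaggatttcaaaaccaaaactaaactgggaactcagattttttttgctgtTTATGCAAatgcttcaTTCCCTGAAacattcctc
C3, chr17:57228087-57228386, minus strand: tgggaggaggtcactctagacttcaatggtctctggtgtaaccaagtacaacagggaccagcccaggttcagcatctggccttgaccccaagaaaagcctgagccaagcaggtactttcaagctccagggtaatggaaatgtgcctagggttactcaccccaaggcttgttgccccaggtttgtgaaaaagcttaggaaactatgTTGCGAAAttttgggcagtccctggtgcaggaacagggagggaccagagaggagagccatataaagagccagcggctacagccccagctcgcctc
In C1ra the C/EBP motif covered bases 267 to 274 and the activation-site core bases 283 to 291, without overlap, and in C3 the C/EBP motif covered bases 206 to 213 on the opposite strand. Of 32851 RefSeq promoters of this length, 10.8% held TTNNGCAA and 8.3% held TTCNNNGAA on either strand. A loose core of the NF-kB motif was found in C3, Cd55 and Cd59a and in 50.8% of all promoters, and the core of the interferon-stimulated response element in Cd59a and in 3.44%. CACGTG and TGANTCA, held by 7.15% and 7.81% of all promoters, were not found in these 4 windows. The capitals were chosen after the search, and a match describes letters only.

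Within the fibroblast class the members were spread unevenly over clusters formed without them. The cluster led by Clec3b and Col3a1, which held 270 and 51 cells (21% and 8.11% of the class) and 9 of 9 fibroblast markers, had 128 and 233 CPM of C3. The other 4 fibroblast clusters ranged between 0 and 18.3 CPM in either library. It also had 41.9 and 52 CPM of Cfb, against at most 4.68 CPM elsewhere in the class, and 38.6 and 42.8 CPM of Cd55, against at most 15.7 CPM. Thus this cluster held 85.4% and 82.6% of the C3 UMIs of the class, 81.5% and 73.9% of its Cfb UMIs and 75.8% and 48.3% of its Cd55 UMIs, from 22.9% and 8% of its total UMIs.

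The same cluster was the highest of the class for C1ra, with 302 and 471 CPM, for C2, with 119 and 199 CPM, and for Serping1, with 2208 and 2426 CPM. All 3 genes were present in the other large clusters too, with Serping1 between 526 and 886 CPM in those of more than 3 cells. C1s1, the partner protease of C1r, had 423 and 658 CPM there and at most 307 CPM in the others. C4b went another way: its highest fibroblast level was in the cluster led by Wnt6, with 227 and 513 CPM from 316 and 73 cells, a cluster in which C3 and Cfb had 0 UMIs in both libraries. Cd59a, at 53.7 and 47.8 CPM, was also highest there, and it was 21.8 and 3.06 CPM in the C3-rich cluster. The cluster that came almost wholly from library 2, led by Cxcl10 and Ccl2, had 140 CPM of C4b, 573 CPM of Serping1 and 2.66 CPM of C3 in that library. Clusters share their library and are not replicates, so these are descriptions without a test.

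**Figure D2:**
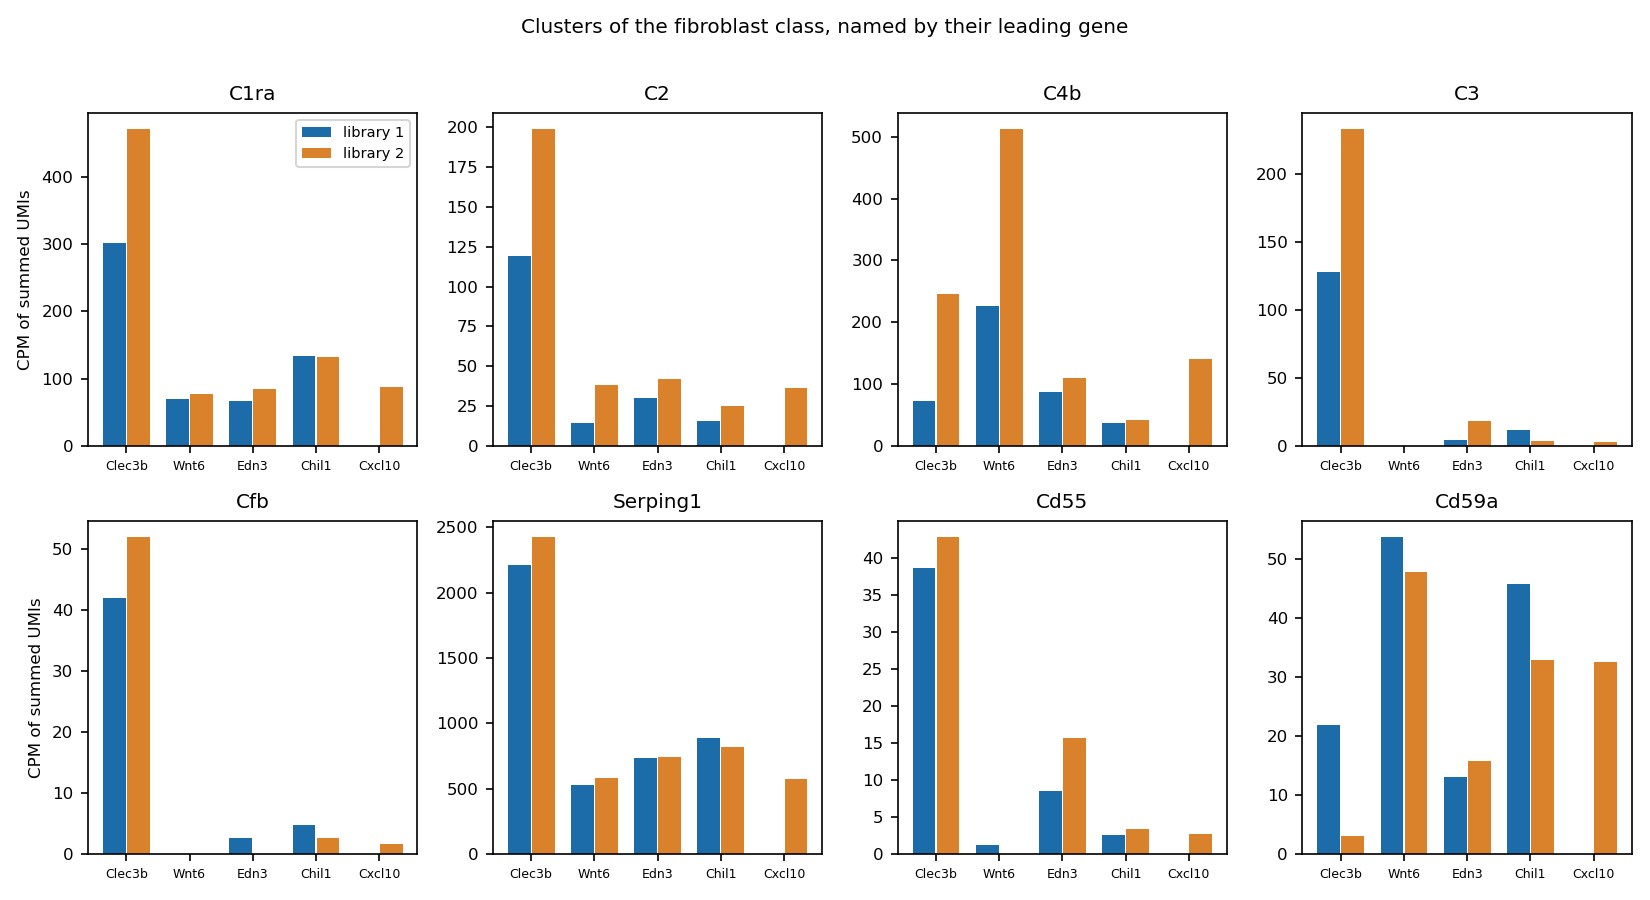
Levels (CPM, linear axis from 0) in the 5 fibroblast clusters, each named by its leading gene, with a bar for each library that had at least 20 cells of the cluster; Cfi is left out. The Clec3b cluster is highest for C3, Cfb, C1ra, C2, Serping1 and Cd55 in both libraries, and the Wnt6 cluster is highest for C4b.

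The non-pigmented ciliary epithelium and the pigmented ciliary or iris epithelium, called the 2 layers here, were set against each other first. In the ciliary body the 2 layers together make aqueous humour. The pigmented class was named for ciliary or iris cells together, so it is not shown to be the ciliary layer alone. Of its cells 62 in library 1 and 53 in library 2 held a Myh11 UMI. In the non-pigmented over the pigmented layer 3 of 9 members were called higher and 1 lower, against 3.90% of all 6871 genes tested called higher and 2.95% lower. The higher ones were Serping1 (log2 2.75 ± 0.53, edgeR quasi-likelihood adjusted p = 6.17e-04), C4b (1.74 ± 0.41, 0.0046) and C3, which had 36 UMIs in the non-pigmented and 1 in the pigmented layer (ratio 51.8, 95% counting interval 8.72 to 2103). The non-pigmented C3 UMIs came from 6 and 5 cells, as given above. The interval takes UMIs as independent and does not cover variation between cells or pools. The lower one was C2 (-3.45 ± 0.40, 2.91e-07), with 9 and 21 UMIs in the non-pigmented and 206 and 252 in the pigmented layer. Both libraries of one layer were apart from both of the other for each of these 4 genes. C1ra (1.35 ± 0.74, adjusted p = 0.394) and Cd59a (0.43 ± 0.41, 0.717) were not called, and Cd55 had 6 UMIs in the non-pigmented and 3 in the pigmented layer. All 3 pigmented Cd55 UMIs lay in the 5% of cells with the most UMIs. Without these cells Cd55 was called higher by the same test (5.69, adjusted p = 0.0384), from few UMIs. The median log2 difference was 1.35 over the 5 members with more than 3 UMIs on both sides and 0.00 over all genes tested.

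Fibroblasts were then set against the mean of both epithelial layers, as stroma against epithelium. In fibroblasts 6 of 9 members were called higher and 0 lower, against 13.5% and 9.75% of all genes tested. C1ra was 4.54 ± 0.38 (log2) higher (edgeR quasi-likelihood adjusted p = 1.91e-10), Serping1 3.98 ± 0.39 (1.25e-09) and C3 3.28 ± 0.54 (2.59e-05). The C3 value averages logarithms over layers of which one had 1 UMI; against the summed UMIs of both layers the ratio was 3.46 (95% counting interval 2.46 to 4.99). Fibroblasts had 34.3 and 22.5 CPM of C3, while the non-pigmented layer alone reached 19.9 and 21.6 CPM. Cd55 was 2.27 ± 0.52 higher (0.00117) and C4b 1.29 ± 0.30 (0.00103), and Cfb had 115 UMIs in fibroblasts and 3 in both layers together (ratio 13.6, 95% counting interval 4.55 to 67). With DESeq2 the calls of C4b (1.15, adjusted p = 0.0535) and Cfb (4.28, 0.555) were lost at similar fold changes. C2, with a fibroblast level between the layers, was not called (-0.19 ± 0.30, 0.691), and neither was Cd59a (-0.49 ± 0.33, 0.279). With the UMIs of the layers summed, C2 was at 41.8 and 46.7 CPM in fibroblasts, against 117 and 114 CPM in epithelium (ratio 0.376, 95% counting interval 0.332 to 0.427), so the size of the difference depends on how the layers are averaged. Without the 5% of cells with the most UMIs, C2 changed sign to 1.78 and was past the adjusted threshold (0.0251). The median was 2.27 over the 7 members with more than 3 UMIs on both sides and 0.09 over all genes tested.

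Between the retinal pigment epithelium and the pigmented ciliary or iris epithelium, continuous layers of one pigmented sheet, fewer members were called than above. Only 5 of the 9 members had more than 3 UMIs on both sides, so a lack of calls says little about the others. The number of calls is thus not read as members differing less than other genes. In the retinal pigment epithelium 0 members were called higher and 1 lower, against 5.65% and 5.40% of all genes tested. The lower one was C2, with 67.6 and 61 CPM in the retinal pigment epithelium, against 200 and 172 CPM in the pigmented epithelium (-1.25 ± 0.32, edgeR quasi-likelihood adjusted p = 0.00726). The call was lost without the 5% of cells with the most UMIs (-0.96, adjusted p = 0.0762) and without the pigmented cells that held a Myh11 UMI (-0.57, 0.366). Without the 5% of cells with the most UMIs C4b was called higher instead (1.39, adjusted p = 0.0259). C4b (0.80 ± 0.41), C1ra (1.25 ± 0.72), Serping1 (-0.29 ± 0.60) and Cd59a (-0.34 ± 0.42) were not called, and Cfi had 6 UMIs in the retinal pigment epithelium and 0 in the pigmented epithelium. Serping1 went in opposite directions in the libraries, with 10.7 CPM in the retinal pigment and 42.7 CPM in the pigmented epithelium of library 1, and 23.1 CPM in the retinal pigment and 11.6 CPM in the pigmented epithelium of library 2. The median was -0.29 over the 5 members with more than 3 UMIs on both sides and -0.00 over all genes tested.

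Macrophages were set against fibroblasts as an immune against a stromal source. In macrophages 1 of 9 members was called higher and 5 lower, against 14.3% and 16.6% of all genes tested. The lower ones, with edgeR quasi-likelihood log2 differences and adjusted p, were Serping1 (-4.54 ± 0.52, 1.77e-08), C1ra (-3.74 ± 0.43, 4.42e-08), Cd59a (-2.14 ± 0.47, 4.09e-04), C3 (-1.63 ± 0.47, 0.00668) and C4b (-1.17 ± 0.36, 0.00935). The C4b call was lost without the 5% of cells with the most UMIs (-0.95, 0.0271, under the fold limit) and without the class II-rich cluster (-0.80, 0.0877). Cd55 was higher by 1.04 ± 0.40 (adjusted p = 0.0449), and this call was lost under 6 of the alternatives, with adjusted p between 0.0521 and 0.185. C2 (0.24 ± 0.32) and Cfb (-0.97 ± 0.67, 0.29) were not called. The median was -1.40 over the 8 members with more than 3 UMIs on both sides and 0.01 over all genes tested.

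**Figure D3:**
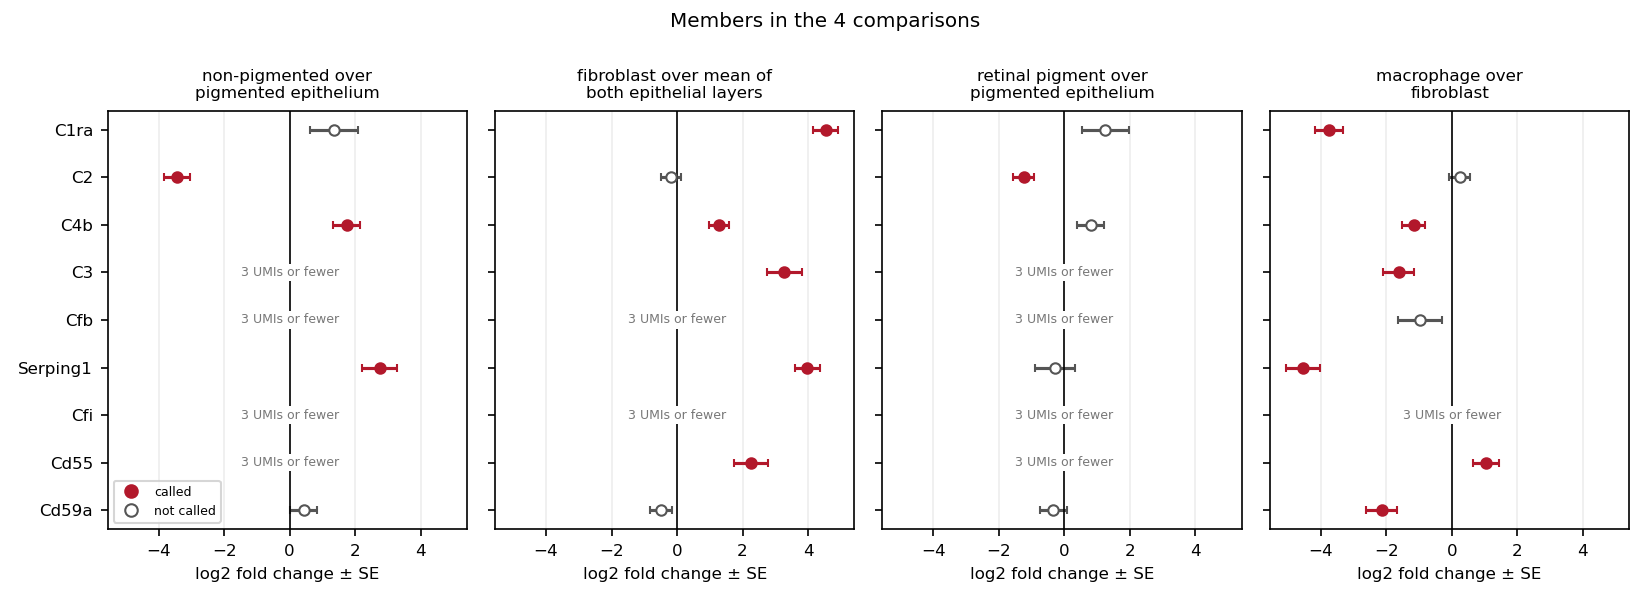
Log2 fold changes of the members in the 4 comparisons, with bars of 1 standard error and filled points for called members; members with 3 UMIs or fewer on a side are marked in place of a point. Fibroblasts lie above the epithelial layers for 5 plotted called members and macrophages lie below fibroblasts for 5 called members, while C2 is lower in the non-pigmented than in the pigmented layer and lower in the retinal pigment epithelium than in the pigmented epithelium.

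To set sources against inhibitors, each member's level in a class was divided by its own mean over the 18 classes, and the median log2 value was taken over the 5 sources and over the 4 inhibitors. In 16 of the 18 classes at least 1 source had 0 UMIs in a library, so that medians there can be set by the pseudocount, and only fibroblasts and macrophages are described. The inhibitors were not screened in this way. In fibroblasts the sources lay at 1.85 and 1.72 (log2, libraries 1 and 2) and the inhibitors at -1.04 and -1.15, a difference of 2.89 and 2.88. The inhibitor median of library 2 is the average of Cd55 (-0.72) and of Cfi (-1.59). Cfi had 0 UMIs there, so its value is set by the pseudocount. With levels divided by the median over classes in place of the mean, the fibroblast inhibitors turned sign to 1.23 and 0.95 and the difference was 2.45 and 1.78. Sources thus stood above inhibitors in both libraries on either scale, while the level of the inhibitors below or above zero depended on it.

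The fibroblast medians hide members that went opposite ways. Among the sources C1ra stood at 3.06 and 3.14 above its own mean (log2), Cfb at 2.10 and 1.92 and C3 at 1.85 and 1.72, while C4b was at 0.12 and 0.55 and C2 at -0.10 and -0.02. Among the inhibitors Serping1 stood at 3.11 and 3.08, but Cd55 was at -0.89 and -0.72 and Cd59a at -1.18 and -1.67, and Cfi had 1 UMI in all fibroblasts. The soluble inhibitor of C1 thus lay high in the same class as C1ra, and both membrane inhibitors lay below their own means there. For Cd55 this depends on the scale, since B cells held 66.7% of its level summed over classes. Against the mean of the logarithms Cd55 was called higher in fibroblasts (2.62 ± 0.44, edgeR quasi-likelihood adjusted p = 4.02e-05). Its fibroblast level was below the plain average of the other classes. In macrophages the difference was 1.68 and 1.60 (1.70 and 1.95 on the median scale), and its inhibitor median is the average of Serping1 and of Cfi, which had 0 UMIs. These are RNA levels relative to each gene's mean and carry no test.

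**Figure D4:**
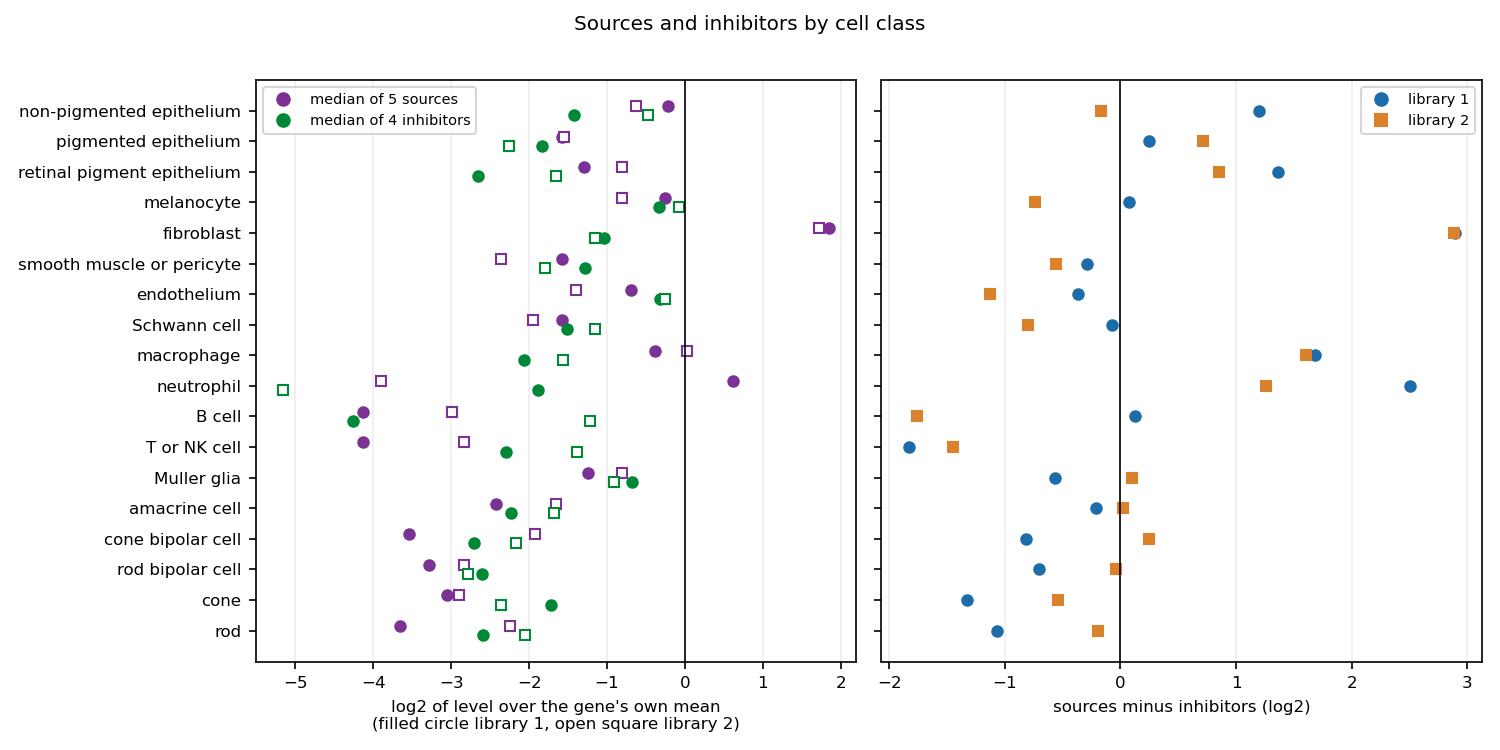
Median log2 level of the 5 sources and of the 4 inhibitors in each class, relative to each gene's mean over the 18 classes, with a filled circle for library 1 and an open square for library 2, and the difference of the medians at the right. Values of the 16 classes with a source at 0 UMIs depend on the pseudocount. Through Cfi, so do the inhibitor medians of macrophages and, in library 2, of fibroblasts. Fibroblasts have sources at 1.85 and 1.72 and inhibitors at -1.04 and -1.15.

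The complement list held 46 further genes in the files, and 25 of them were tested. In the non-pigmented over the pigmented layer 3 were called higher and 0 lower (3.90% and 2.95% of all genes). They included Colec12, a scavenger receptor of the collectin family (3.27 ± 0.50, edgeR quasi-likelihood adjusted p = 3.06e-05), and Vtn, which encodes vitronectin, an inhibitor of membrane attack (2.55 ± 0.74, 0.0285). Vtn was also at 1192 and 920 CPM in rods, the most numerous retinal cells, and the part of rod RNA in its layer difference was not tested. In fibroblasts over the epithelial layers 4 were called higher and 2 lower (13.5% and 9.75% of all genes), which is near the share over all genes. C1s1 was higher by 5.99 ± 0.43 (adjusted p = 4.75e-12), with 209 and 232 CPM in fibroblasts, Colec12 by 2.92 and Thbd, which encodes thrombomodulin, by 1.47. Clu, which encodes the fluid-phase inhibitor clusterin, was lower (-1.27 ± 0.44, adjusted p = 0.0264), with 1132 and 927 CPM in fibroblasts, against 3025 and 3376 CPM in the non-pigmented and 2338 and 2628 CPM in the pigmented layer.

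In the retinal pigment over the pigmented epithelium 2 of the 25 were called higher and 1 lower (5.65% and 5.40% of all genes). By edgeR's quasi-likelihood test C1s1 was higher (2.22 ± 0.69, adjusted p = 0.0277), with 20 and 24 UMIs in the retinal pigment and 9 and 1 in the pigmented epithelium. Thbd was lower (-3.22 ± 0.62, adjusted p = 4.24e-04), with 3 and 4 UMIs in the retinal pigment and 33 and 40 in the pigmented epithelium. Both had few UMIs and are named here after their values were seen. In macrophages over fibroblasts 12 were called higher and 5 lower (14.3% and 16.6% of all genes). C1qa, C1qb and C1qc, the chains of the recognition molecule C1q, were higher by 8.39 ± 0.86, 8.33 and 8.05, and C1qa had 5204 and 4724 CPM in macrophages, against 9.1 and 38.7 CPM in fibroblasts and 28.3 and 18.6 CPM in rods. The receptors C3ar1 (6.97), C5ar1 (7.61) and Cd93 (6.01), the integrin chains Itgam (8.65) and Itgb2 (7.26) of complement receptor 3, and Cfp (5.11), which encodes properdin, were higher as well. C1s1 (-4.00), Colec12 (-2.91), Clu (-2.88) and Thbd (-2.72) were lower. The C1q chains were thus highest in macrophages and the C1r and C1s proteases in fibroblasts. Over list genes with more than 3 UMIs on both sides, the median log2 difference was 0.46 (14 genes) in the non-pigmented over the pigmented layer, 0.61 (17) in fibroblasts over epithelium, -0.69 (12) in retinal pigment over pigmented epithelium and 5.01 (18) in macrophages over fibroblasts. Over the classes, 87 of 450 pairs of these genes were called higher and 26 lower, against 14.8% and 3.81% over all genes.

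**Figure D5:**
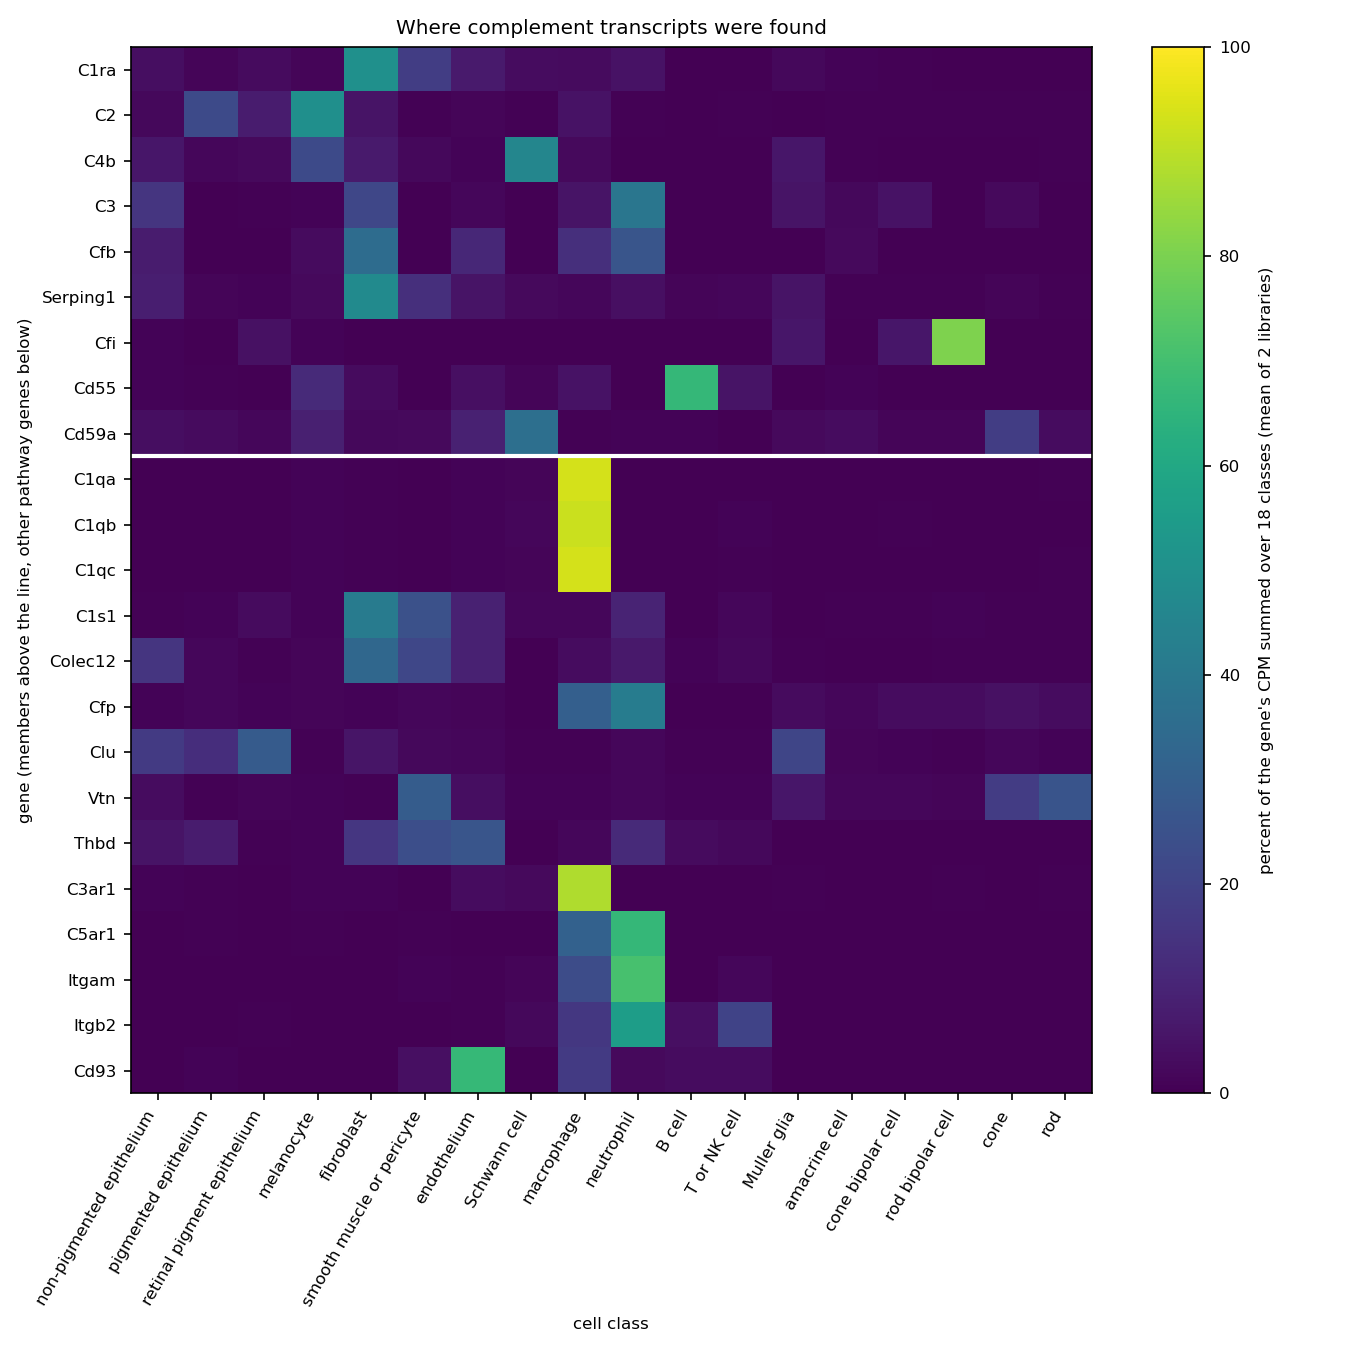
Share of each gene's CPM, summed over the 18 classes, that each class held (percent, mean of both libraries), with the members above the line and other pathway genes named in the text below it. C1qa, C1qb and C1qc stand out in macrophages and C1ra and C1s1 in fibroblasts.

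The genes most like each member were taken by the lower of both libraries' Pearson r of log2(CPM + 1) over the 18 classes, among 4910 genes. Each member was also set against itself between the libraries. That r was 0.414 for Serping1, 0.549 for Cfb, 0.656 for Cd59a, 0.661 for C1ra, 0.757 for C2 and 0.778 for C4b. All of these lay below the member's highest likeness to another gene. For C3 (0.871), Cd55 (0.892) and Cfi (0.942) it lay above. C2 was nearest to the pigment cell genes Gpnmb (r = 0.831) and Mitf (0.822), which encodes a transcription factor of pigment cells, and to the lysosome gene Cd63 (0.778). Serping1 was nearest to Il11ra1 (0.875), which encodes the interleukin-11 receptor, Plat (0.849), which encodes tissue plasminogen activator, and Serpinh1 (0.834), which encodes a collagen chaperone. C4b was nearest to Cyp2j6 (0.852), Zfyve21 (0.829) and the myelin gene Pmp22 (0.828). C1ra was nearest to Ecm2 (0.799), Tbc1d8b (0.777) and Mn1 (0.771), and Cfb to Cyp2f2 (0.766), the matrix protease gene Mmp3 (0.718) and Cysltr1 (0.701).

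Cd55 followed Gnb2l1 (0.811) and Cd38 (0.737), and Cd59a followed Evi5 (0.804), Sep15 (0.765) and Emc7 (0.753). Cfi followed Nme1 (0.759), Car10 (0.747) and Ttc1 (0.739). The nearest to C3 were Ogfrl1 (0.638), Igdcc4 (0.588) and Ndel1 (0.572), the weakest likeness among the members. Between members, C1ra and its inhibitor Serping1 had r = 0.781 and 0.716 in libraries 1 and 2, and C4b and Cd59a, both highest in Schwann cells, 0.498 and 0.638. C4b had higher values, 0.536 and 0.667, with Serping1, which was highest in fibroblasts. The other pairs are not listed. These values are descriptions over 18 classes that share 2 libraries and their depth.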

How the data were processed

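Single-cell RNA was measured in 2 libraries of ciliary epithelium. The authors deposited raw UMI counts per gene and barcode, made with Cell Ranger 3.1.0 per the file headers; CASAVA 1.8, Cell Ranger, Seurat and the builds mm10 and GRCm38 are named per the submitters' processing notes, and the annotation release is not given in the sources used here. The deposited counts were not normalised. A second matrix of each library was identical to the first. Gene positions are those of GENCODE for GRCm38, which listed 32655 of the 33456 identifiers.

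A cell needed 500 or more detected genes and no more than 30% of UMIs from mitochondria. Scrublet marked 3 and 0 cells at an assumed doublet rate of 5%, far fewer than that rate implies. No cell was removed as a doublet, so doublets may remain, and their number was not measured. Cells were clustered on 16795 genes that held all markers (2000 variable genes, 30 principal components, 15 neighbours, Leiden at resolution 1, scanpy 1.11.5), without integration of the libraries; the 16661 other genes, with all complement genes, were held out. The 28 clusters were named by the cell type with the highest mean z-score of its markers, with at least 3 markers at 0.5 or more per 10000 UMIs and 4 times the median of the other clusters; related types were then merged into classes, mast cells and antigen-presenting cells into macrophages among them. This naming rule was written after the marker levels had been seen, and the members, lists and markers were chosen with earlier results of these data known.

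For each class the counts of its cells were summed in each library. Classes under 20 cells in either library were left out, and the 36 sums of the other 18 were fitted together with library as a block (edgeR 4.0.16, TMM, filterByExpr, 17 residual degrees of freedom, common dispersion 0.0409), so the other classes supply most of the estimate of spread. Libraries pair the sums, since all classes of a library come from one pool. Of the held-out genes 6871 were tested, all 9 members included, with p-values adjusted over all of them (class against the others: over all gene and class pairs). Tested on data simulated for the epithelial layers (6871 genes), the fit recovered 76 of 100 genes changed 4-fold and 17 of 100 changed 2-fold. Of 94 called genes 1 was unchanged. The simulated counts were drawn from the means and spread of the same fit, so they cannot test its assumptions. The changed genes were picked among those with more than 20 fitted UMIs in these layers, so the recovery does not cover members with few UMIs there. Intervals for shares and ratios are exact at 95% and, like the limit of 3 counts for a count of 0, cover counting error only. DESeq2 1.42.0 was an alternative. The genes named were the members, called genes of the complement list that reached 50 UMIs in both libraries of the higher class, and the 3 genes most like each member, without predicted, RIKEN, mitochondrial and ribosomal genes; fibroblast clusters and non-pigmented and pigmented cell splits were described after their values were seen. Horizontal and retinal ganglion cells were too few for the fit, and the gene Cd55b was not analysed here. A few genes that the naming rule takes are not reported here, while the counts of calls cover all genes tested.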

Additional observations from a re-analysis of the deposited data

How the results depend on the processing

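Counts of called members in the 4 comparisons stayed within 1.5 times of those given, in every alternative that could be tested, except 1: without pigmented cells holding a Myh11 UMI, a setting chosen after seeing the data, 0 members were called between the retinal pigment and the pigmented epithelium. There, without the 5% of cells with the most UMIs, the single call was C4b in place of C2. In that comparison the list outside the members had 7 calls without a filter on low counts and 5 with a mitochondrial limit of 15%, against 3. Scaling to the median over classes moved the difference of sources and inhibitors to 2.12 in fibroblasts (2.45 and 1.78 in libraries 1 and 2) and 1.82 in macrophages (1.70 and 1.95). The sign turned for C2 in fibroblasts over epithelium (1.78 without the 5% of cells with the most UMIs, and 0.12 without Myh11 cells), for Serping1 in retinal pigment over pigmented epithelium (0.95 and 0.05 under the same settings), for C1ra in macrophages against the other classes (-0.10 without library 1 and 1.70 without library 2), and for Cfi in Muller glia against the other classes (-1.37 without the 5% of cells with the most UMIs and -1.63 with another split of genes); the cause was not tested. DESeq2 size factors moved the median of all genes by -0.15 in fibroblasts over epithelium and by -0.16 in macrophages over fibroblasts. A fit with no replicate block, which leaves the pairing of classes within a library out, ended the call for 2 of 82 member values, which were Cd59a in cone bipolar cells against the other classes (-1.02, adjusted p = 0.106) and Cd55 in macrophages over fibroblasts (1.03, adjusted p = 0.0882). With 1 library left out no residual degrees of freedom remain, so only values were compared: 46 of 82 member values moved by more than 1 standard error without library 1 and 46 without library 2. Depth limits C3, Cd55, Cfb and Cfi, and doublets and free RNA were not removed.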
